A study of Homo sapiens with 12 samples.

Results

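Exosomes of AC16 cells carried almost none of 10 mature microRNAs (miRNAs) that were counted in every library of the cells themselves. The names were hsa-miR-12135, hsa-miR-3684, hsa-miR-5582-3p, hsa-miR-759, hsa-miR-651-5p, hsa-miR-26a-2-3p, hsa-miR-3152-3p, hsa-miR-8076, hsa-miR-33a-5p and hsa-miR-8084, written without the species prefix (hsa) below. They make up 10 of the 2656 names listed for the cells. Each cell library held between 1784 and 2387 counts of the 10 names summed, and each exosome library between 8 and 22. The names were picked from these same data for having counts in cells and close to none in exosomes. Counts of a name in a cell library ran from 11 to 777. The exosome to cell values below are therefore a description of the choice, with no test attached.

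AC16 is an established human line derived from cardiomyocytes. Small RNA was sequenced from whole cells and from their exosomes, the small vesicles that cells release, in 4 groups of 3 libraries. Con and Ang, as the labels name the treatments, were each sampled as cells and as exosomes. All 12 libraries came from the same line, the Ang tables carry AngII in their headers, and neither the dose nor the time of treatment is given in the sources used here. The study asked which miRNAs differ in exosomes of hypertrophic cardiomyocytes. Cell RNA was extracted with a miRNeasy Micro kit and exosome RNA with an exoRNeasy Maxi kit, so that compartment and kit cannot be told apart in any exosome to cell value. No source states that replicates were separate cultures, and p-values reflect no more than the spread among these libraries, which may be technical.

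A miRNA is cut from a hairpin precursor. The hairpin gives a duplex of a 5p and a 3p arm, of which one arm is usually loaded into an Argonaute protein and the other is degraded. Bases 2 to 8 of the mature strand, the seed, do most of the pairing with target messenger RNAs. Some miRNAs leave the cell in exosomes more readily than others, and RNA-binding proteins that recognise short motifs, such as hnRNPA2B1 and SYNCRIP, have been described as taking part in that sorting. Among the 10 names, miR-33a-5p is the best known: it lies in an intron of SREBF2, the gene of a master regulator of cholesterol synthesis, and represses the cholesterol exporter ABCA1. miR-26a-2-3p is the lesser arm of a hairpin in an intron of CTDSP2, a phosphatase gene, whose major arm, miR-26a-5p, is abundant in many tissues.

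The mature sequences are given first because the names shared a low content of G and C (GC content). Sequence was no part of the choice. GC content went along with the exosome to cell ratio over all names, as given below. A list chosen for low ratios would therefore be low in GC as well. The sequence set used here, taken from RefSeq (GRCh38.p14), held 9 of the 10 mature strands and none for miR-8084. Whether RefSeq itself lacks it was not checked. They read as follows from 5′ to 3′, with the seed in capitals.
miR-12135: uAAAGGUUuguuuguaaa
miR-8076: uAUAUGGAcuuuucugauacaaug
miR-651-5p: uUUAGGAUaagcuugacuuuug
miR-26a-2-3p: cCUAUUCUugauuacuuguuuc
miR-5582-3p: uAAAACUUuaagugugccuagg
miR-3152-3p: uGUGUUAGaauaggggcaauaa
miR-759: gCAGAGUGcaaacaauuuugac
miR-3684: uUAGACCUaguacacguccuu
miR-33a-5p: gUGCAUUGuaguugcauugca
No seed occurred more than once among the 9 strands. miR-33a-5p shared its seed with miR-33b-5p and miR-26a-2-3p shared its seed with miR-26a-1-3p, and the other 7 shared theirs with no other listed name of known sequence.

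The 9 strands lie on 9 chromosomes (GRCh38.p14). Introns of protein-coding genes on the same strand hold miR-12135 (NEO1, chr15:73299962-73299979), miR-3684 (METAP1, chr4:98997434-98997454), miR-33a-5p (SREBF2, chr22:41900949-41900969) and miR-3152-3p (ADAMTSL1, chr9:18573350-18573371), all on the plus strand. On the minus strand the same holds for miR-5582-3p (CKAP5, chr11:46753125-46753146), miR-26a-2-3p (CTDSP2, chr12:57824620-57824641) and miR-8076 (CFAP44, chr3:113432128-113432151). miR-651-5p (chrX:8126980-8127001, plus strand) lies in an intron of the long noncoding RNA AC097626.1. miR-759 (chr13:52810073-52810094, plus strand) overlaps no host gene in GENCODE release 29.

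Cell libraries held 413513 to 528844 unique molecular identifiers (UMIs, each marking 1 captured molecule) and exosome libraries 697049 to 1029883. CPM below is UMIs per 1000000 of the library total. The 7 muscle miRNAs summed to 285 to 376 CPM in cell libraries and 57.4 to 90.6 CPM in exosome libraries, and miR-1-3p, the most typical miRNA of heart muscle, had 2 to 9 UMIs per cell library, while the heart miRNA miR-208a-3p had 63 to 130. Replicate 2 of cells Ang stood apart in markers of other cell types: endothelial miR-126 summed to 4665 CPM there against 517 to 674 in the other cell libraries, and the blood list to 6800 against 2028 to 2364. Replicate 1 of exosomes Con held 551 CPM of the blood list, against 1190 and 1270 in the other Con exosome libraries. The exosome libraries of Ang held 346, 636 and 476 CPM of it. Endothelial miR-126 summed to 130, 434 and 473 CPM in exosomes Con and to 84.6, 233 and 96.8 in exosomes Ang. For both, replicate 1 of exosomes Con lay within the range of exosomes Ang, and the other Con exosome libraries lay above it. The part of these markers in the results was not tested, and results that rest on a library are given without it below.

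The most abundant name of the list was miR-12135. Its UMI counts were 535, 528 and 397 in cells Con and 697, 494 and 777 in cells Ang, and 2, 0 and 1 in exosomes Con and 1, 3 and 0 in exosomes Ang. No exosome library held more than 3 counts, though each was sequenced more deeply than any cell library. Scaled by library totals, its summed count was 957-fold lower in exosomes in Con (95% interval 327 to 4648) and 930-fold lower in Ang (362 to 3415). These exact intervals stand for counting error alone and leave out how libraries vary.

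miR-5582-3p had 484, 452 and 435 UMIs in cells Con and 288, 253 and 281 in cells Ang. It was the only one of the 10 with a count in every exosome library, 2, 1 and 4 in Con and 2, 5 and 3 in Ang. The summed level was 385-fold lower in exosomes in Con (186 to 960) and 155-fold lower in Ang (84.0 to 325). Its 17 exosome counts in all were, with those of miR-651-5p, the most of the 10 names.

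miR-3684 had 305, 364 and 291 UMIs in cells Con and 401, 323 and 384 in cells Ang, against 1, 2 and 0 in exosomes Con and 1, 3 and 1 in exosomes Ang. It was 630-fold lower in exosomes in Con (215 to 3058) and 419-fold lower in Ang (179 to 1292). miR-759 had 253, 278 and 244 UMIs in cells Con and 355, 257 and 352 in cells Ang, against 2, 0 and 3 in exosomes Con and 2, 2 and 0 in exosomes Ang. Both names were present at 478 CPM or more in every cell library and absent from at least 1 library of exosomes Con. miR-759 was 305-fold lower in exosomes in Con (130 to 942) and 455-fold lower in Ang (177 to 1675).

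miR-26a-2-3p had 284, 298 and 266 UMIs in cells Con and 343, 255 and 315 in cells Ang. Exosomes Con held 1, 1 and 4 and exosomes Ang 0, 1 and 0. The ratio was 278-fold lower in Con (127 to 760), whereas the single count in Ang left it between 309 and 68210-fold lower. For this name the depth sets only a rough size. miR-651-5p had 213, 204 and 193 UMIs in cells Con and 172, 134 and 184 in cells Ang, with 0, 3 and 1 in exosomes Con and 2, 8 and 3 in exosomes Ang. The 8 counts in replicate 2 of exosomes Ang were the highest exosome count of any of the 10 names. It was 300.0-fold lower in exosomes in Con (117 to 1105) and 71.2-fold lower in Ang (41.3 to 135).

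The other 4 names had fewer counts in cells. miR-3152-3p had 46, 62 and 60 UMIs in cells Con, 24, 24 and 35 in cells Ang, 0, 1 and 4 in exosomes Con and 0 in all 3 libraries of exosomes Ang. miR-8076 had 16, 23 and 21 UMIs in cells Con and 30, 22 and 29 in cells Ang, and a single count in exosomes, in replicate 3 of Ang. Neither name was absent from any cell library. miR-33a-5p had 17, 18 and 13 UMIs in cells Con and 14, 11 and 11 in cells Ang, and miR-8084 had 16, 20 and 12 and then 12, 11 and 19. Those last 2 have no row in the exosome files and were taken as 0 there. Every one of the 2580 names with a row has a count in at least 1 exosome library.

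A group of 3 exosome libraries with no count allows a level of up to 1.04 CPM in Con and 1.12 CPM in Ang (3 counts over the group). Against that floor miR-33a-5p was at least 31.5-fold lower in exosomes in Con and at least 22.7-fold lower in Ang, and miR-8084 at least 31.5-fold and at least 26.5-fold. miR-3152-3p was 66.1-fold lower in Con (27.8 to 206) and at least 52.3-fold lower in Ang. miR-8076 was at least 39.3-fold lower in Con, and its single count in Ang gave 153-fold (26.7 to 6119). The smaller ratios of these names sit beside their lower cell counts, and the depth cannot show larger ones for the 2 names at 0.

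**Figure D1:**
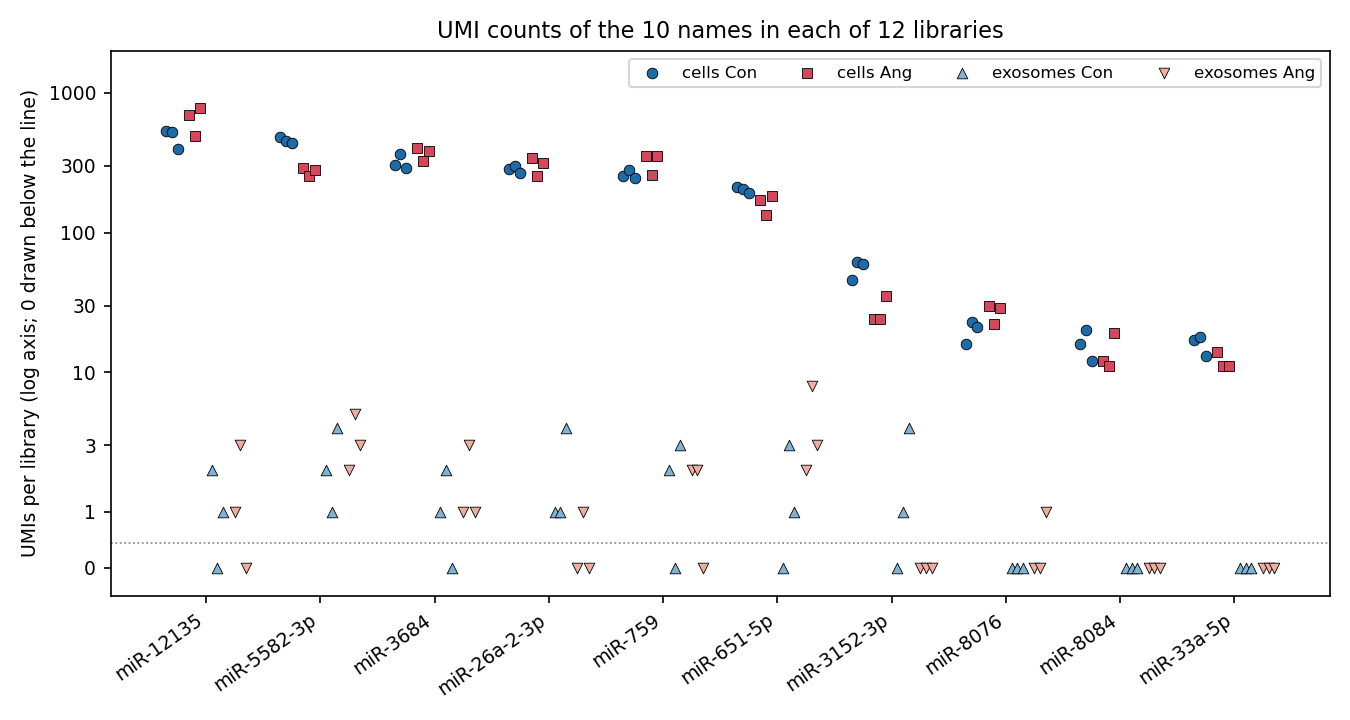
UMI counts of the 10 names (log axis, 0 drawn below the dotted line), with 1 point per library and colours and shapes for the 4 groups. Cell libraries lie between 11 and 777 counts and exosome libraries between 0 and 8, a gap that follows from the choice of the names.

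Summed over the 10 names, the level was 4337 ± 228 CPM in cells Con (SD, n = 3) and 4577 ± 234 in cells Ang, against 11.4 ± 5.30 in exosomes Con and 14.1 ± 7.91 in exosomes Ang. In bulk libraries such as these, fewer vesicles or cells with a miRNA and less of it in each cannot be told apart. By library totals 10 of 10 names were at least 20-fold lower in exosomes in Con, where 16.6% of the 1612 names with a mean of at least 20 CPM in cells were, and 10 of 10 in Ang, where 19.0% were. The choice of the names fixes these counts, and nothing is read from them. The median log2 ratio of exosome to cell level was −8.17 in Con and −7.27 in Ang for the 10 names, beside −1.93 and −2.33 for all 1612.

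Library totals are not the only possible scale, since a few names took much of the exosome libraries. miR-552-3p alone had 656950 UMIs in the 6 exosome libraries and 223 in the 6 cell libraries. TMM factors, which assume that most names do not differ, moved every ratio up by 1.52 in Con and 1.89 in Ang (log2). On that scale miR-12135 was 335-fold lower in exosomes in Con and 251-fold in Ang, and the names at least 20-fold lower numbered 7 in Con and 6 in Ang. Those that left the count in both treatments were miR-33a-5p and miR-8084, which lack any exosome count, together with miR-8076 in Con and miR-651-5p and miR-3152-3p in Ang.

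Ranked by ratio over both treatments, with exosome sums under 3 set to 3, the list held places 1 to 5 of the 1612 names: miR-12135, miR-3684, miR-26a-2-3p, miR-759 and miR-5582-3p. miR-651-5p was at place 13, miR-3152-3p at 28, miR-8076 at 32, miR-8084 at 69 and miR-33a-5p at 74. The list is thus not the 10 lowest ratios. Names of lower ratio than miR-651-5p that are not on it were miR-5584-3p (2402 UMIs in cells and 23 in exosomes, 201-fold lower), miR-181b-2-3p (519 and 5, 200.2-fold), miR-24-1-5p (391 and 4, 189-fold), miR-6529-3p (3458 and 45, 148-fold), miR-597-5p (5094 and 76, 129-fold), miR-374a-3p (199 and 3, 128-fold) and miR-146a-3p (262 and 4, 126-fold). Just above it came miR-606 (120.3-fold), miR-875-5p (118-fold) and miR-4538 (117-fold). miR-181b-2-3p, miR-24-1-5p, miR-374a-3p and miR-146a-3p had as few exosome counts as the chosen names.

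Names of like abundance in cells mostly had exosome counts. Among the 1158 other names whose mean cell level lay within the range of the 10 (29.05 to 1184 CPM), the 6 exosome libraries summed to a median of 162.5 counts, with quartiles of 43 and 749, and 138 names (11.9%) had 17 or fewer. The 10 names had 0 to 17, with a median of 7. That is the range of names hardly present in cells: the 1044 names under 20 CPM had a median of 9 exosome counts.

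**Figure D2:**
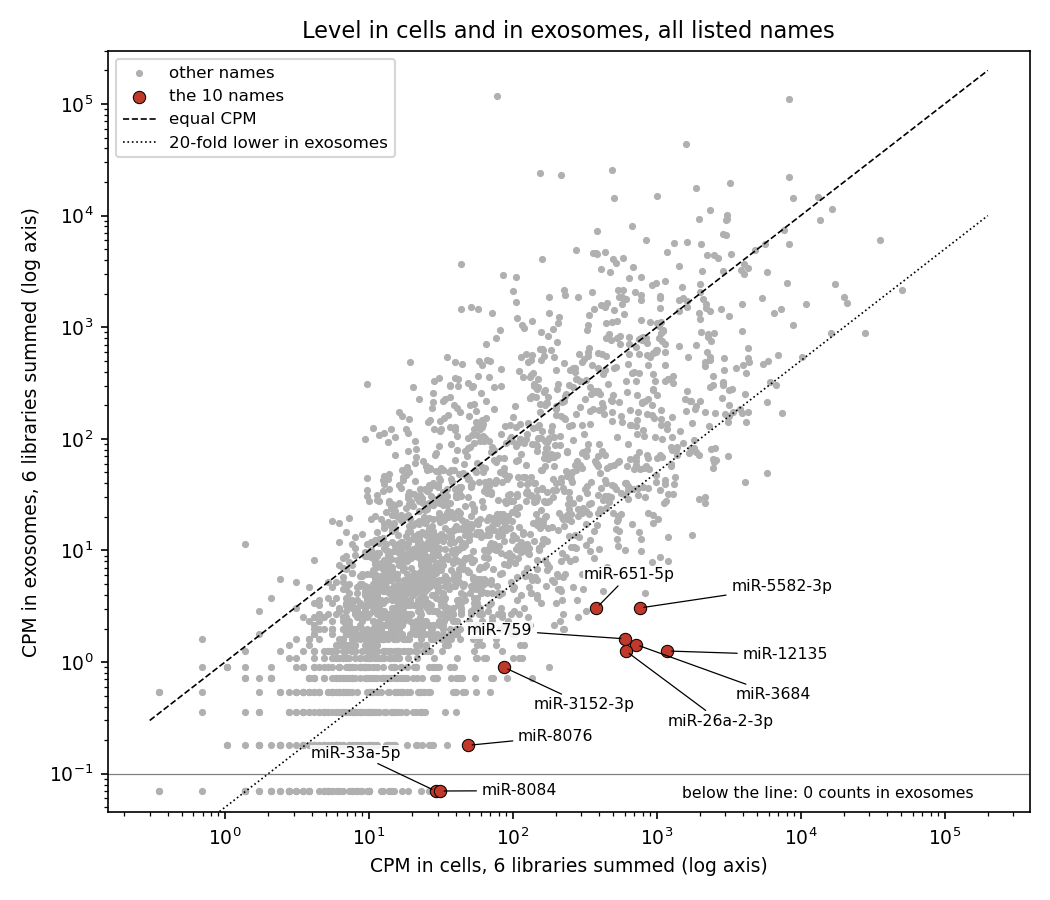
Level in the 6 exosome libraries summed against level in the 6 cell libraries summed, in CPM on log axes, with 1 point per name and the 10 names in red. As follows from their choice, the 10 names lie below the dotted line that marks a level 20-fold lower in exosomes, and 2 of them have no exosome count.

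The 9 strands of known sequence were poor in G and C. Their GC content ran from 22.2% in miR-12135 to 42.9% in miR-3684 and miR-33a-5p, with a median of 36.4%. The 1448 names of at least 20 CPM in cells with a known sequence had a median of 54.5% and quartiles of 45.5% and 63.6%, so that all 9 strands lay below the lower quartile. Uracil made up a median of 38.1% of their bases, against 22.9% over all names. Length differed little, at a median of 22 bases in both, although miR-12135 has only 18 bases and miR-8076 has 24. Low GC content was not particular to the list. Among the lowest-ratio names outside it with a known sequence, it ran from 22.7% (miR-374a-3p) to 45.5% (miR-24-1-5p), except for miR-4538 at 59.1%.

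GC content went along with the exosome to cell ratio over all names. The median log2 ratio was −5.28 in the 28 names of 30% GC or less, −4.34 in the 172 names of over 30 to 40%, −3.07 in the 420 names of over 40 to 50%, −2.03 in the 332 names of over 50 to 60% and −0.47 in the 496 names above 60%. On the TMM scale the last turned to 1.22, and the other 4 medians ran from −3.58 to −0.34. In those classes 75%, 50.6%, 21.7%, 9.64% and 2.62% of names were at least 20-fold lower in exosomes. Spearman's rho between GC content and log2 ratio was 0.593 and Pearson's r was 0.570 across the 1448 names, which share the same libraries and are not independent. For length rho was −0.045. The part of the extraction kits in this cannot be told apart from that of the compartment.

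Within their GC classes the chosen names were still low. miR-12135 had the lowest ratio of the 28 names in its class, and miR-8076 stood at place 6 there. miR-26a-2-3p, miR-5582-3p, miR-651-5p and miR-3152-3p stood at places 1, 2, 5 and 9 of 172. miR-3684, miR-759 and miR-33a-5p stood at places 1, 2 and 21 of 420. These places follow from the choice of the names and are a description.

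**Figure D3:**
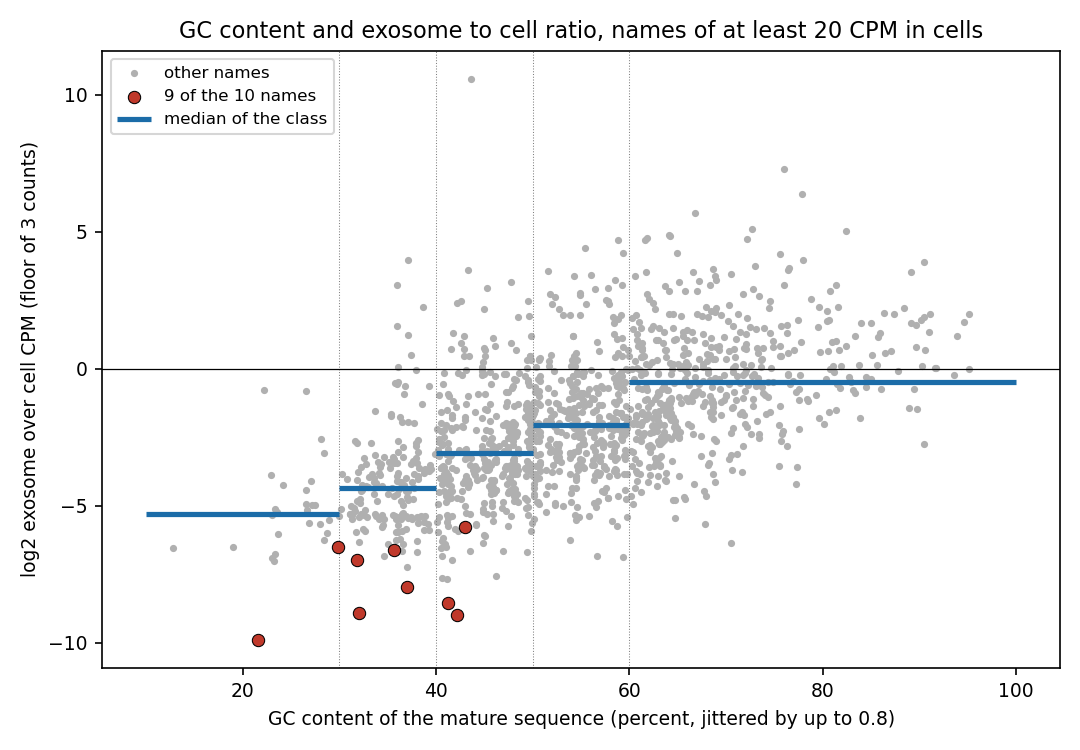
Log2 exosome to cell ratio (sums over both treatments, exosome sums under 3 set to 3) against GC content in percent for 1448 names, with the 9 strands in red and a blue bar at the median of each GC class. The medians climb from −5.28 at 30% GC or less to −0.47 above 60% (1.22 on the TMM scale), and the red points lie between 22.2% and 42.9%.

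The opposite end of the ranking is shown for contrast. The 3 names with the highest ratio were miR-552-3p, 1527-fold higher in exosomes, miR-5008-3p, 158-fold higher (135332 UMIs in exosomes and 444 in cells), and miR-6785-3p, 108-fold higher. RefSeq gives the first 2 as follows, with the seed in capitals.
miR-552-3p: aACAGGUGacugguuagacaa
miR-5008-3p: cCUGUGCUcccagggccucgc
miR-5008-3p has 76.2% GC. miR-552-3p has 42.9%, the same as miR-3684 and miR-33a-5p, whose exosome sums were 8 and 0 UMIs.

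Motifs described in work on miRNA sorting were searched on the mature strand. GGAG, the core of the motif bound by hnRNPA2B1, occurred in 0 of the 9 strands and in 18.0% of the 1448 names. CCCU occurred in 0 and 13.8%, GGCU, part of the motif bound by SYNCRIP, in 0 and 13.5%, and AGAAC in 0 and 2.49%. The first 3 motifs consist mostly of G and C, which these strands have little of. Names with them had higher median log2 ratios (−1.14, −1.19 and −1.61) than names without (−2.37, −2.30 and −2.20). AGAAC went the other way, at −2.72 with it and −2.10 without. At shares of 18.0% or less, nothing is read from 0 of 9 strands for any of these motifs. Of the 9 strands 6 began with U, against 38.1% of all names, and nothing is read from so few strands.

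Several hairpins gave both arms, which allows a description within 1 transcript. In each, 1 arm was chosen for its near-absence from exosomes and its partner was not. A higher partner can follow from that choice, and no test is attached. The first 2 hairpins below are shown because 1 arm was nearly absent from exosomes and the other had more counts there, and the last because both arms had at least 42.4-fold lower levels there. Mature arms are in capitals, 5p before 3p.
MIR33A: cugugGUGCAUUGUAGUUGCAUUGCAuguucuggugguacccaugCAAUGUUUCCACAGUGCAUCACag
MIR3152: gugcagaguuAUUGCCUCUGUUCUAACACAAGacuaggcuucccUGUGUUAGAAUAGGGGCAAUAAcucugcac
MIR5582: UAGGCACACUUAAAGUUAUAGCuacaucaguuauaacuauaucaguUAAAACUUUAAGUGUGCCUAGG
They lie at chr22:41900944-41901012 (plus strand), chr9:18573306-18573379 (plus strand) and chr11:46753125-46753192 (minus strand) of GRCh38.p14.

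The arms of MIR33A were equally abundant in cells and differed in exosomes. Over the 6 cell libraries miR-33a-5p had 84 UMIs and miR-33a-3p had 86. Over the 6 exosome libraries miR-33a-5p had 0, whereas miR-33a-3p had 7, 2 and 4 in Con and 6, 5 and 5 in Ang. The 3p arm was thus 5.72-fold lower in exosomes (3.72 to 9.04), and the 5p arm at least 54.0-fold. The GC content of the arms was close, 42.9% for 5p and 45.5% for 3p.

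The arms of MIR3152 differed too. miR-3152-3p had 251 UMIs in cells and 5 in exosomes, 96.8-fold lower (40.9 to 301), and miR-3152-5p had 56 and 20, 5.40-fold lower (3.19 to 9.50). On the TMM scale these were 29.9-fold (12.6 to 92.8) and 1.67-fold (0.985 to 2.93), which leaves the direction of miR-3152-5p unsettled. In exosomes Con the 5p arm had 7, 1 and 0 counts and the 3p arm 0, 1 and 4, so that replicate 3 went the other way. In exosomes Ang the 5p arm had 3, 4 and 5 and the 3p arm 0 in all 3 libraries. Summed over both treatments, the rarer arm in cells was the more frequent one in exosomes, which in Con rested on replicate 1. For the MIR26A2 hairpin, miR-26a-2-3p was 485-fold lower in exosomes (235 to 1209), and miR-26a-5p, which the MIR26A1 locus also produces, was 16.3-fold lower (15.4 to 17.2), with 11789 UMIs in cells and 1396 in exosomes. MIR5582 was different, with 0 exosome counts against 66 cell counts for miR-5582-5p, at least 42.4-fold lower, beside 249-fold (155 to 428) for miR-5582-3p. miR-651-3p, with 11 counts in cells and 0 in exosomes, was too rare to compare.

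**Figure D4:**
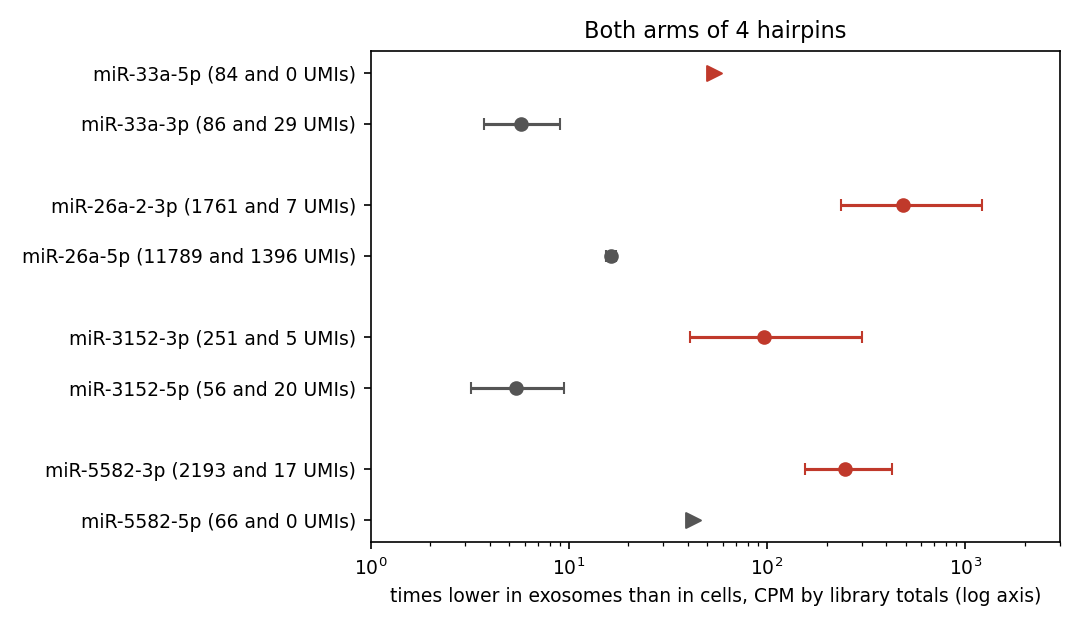
Times lower in exosomes than in cells (CPM by library totals, log axis) for both arms of 4 hairpins, with the chosen arm in red, its partner in grey, UMIs in cells and exosomes in brackets and bars for exact 95% intervals. Arrowheads mark lower bounds for arms with 0 exosome counts, and the intervals of the red and grey arms are apart for miR-26a-2-3p and miR-3152-3p. The red arms were chosen for few exosome counts, so these gaps are a description.

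Relatives with the same seed or of the same family had lower levels in exosomes by library totals. miR-33b-5p, from an intron of SREBF1, has the seed of miR-33a-5p and had 51 UMIs in cells and 4 in exosomes, 24.6-fold lower (9.04 to 93.7). miR-26a-1-3p, with the seed of miR-26a-2-3p, had 40 and 0, at least 25.7-fold lower. The other arms in these families had smaller ratios: miR-33b-3p was 3.74-fold lower (1.98 to 7.32), miR-26b-3p 12.1-fold (5.42 to 31.9) and miR-26b-5p 19.5-fold (18.2 to 20.8). On the TMM scale miR-33b-3p was 1.153-fold lower with an interval of 0.612 to 2.26, which leaves its direction unsettled. Near-identical strands may share reads, and the counts of miR-33a-5p and miR-33b-5p, and of miR-26a-5p and miR-26b-5p, are uncertain for that reason.

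The names were picked for their cell and exosome counts, not for the comparison of Ang with Con in cells. Earlier results of these data were known when they were picked. Names of the list moved in both directions: miR-12135 and miR-759 rose in Ang, and miR-5582-3p and miR-3152-3p fell. These 4 of the 10 names passed the test (adjusted p under 0.05, edgeR), where 6.56% of the 1630 names tested did. That share covers every cell level tested, and names of like level were not counted apart, so nothing is read from 4 of 10. Of all names 2.76% passed as higher and 3.80% as lower. The median log2 change was −0.01 over the 10 names and 0.02 over all names.

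miR-5582-3p fell most reliably. It stood at 915, 876 and 1026 CPM in cells Con and at 587, 612 and 548 in cells Ang, with no overlap. Its mean went from 939 ± 77.7 to 582 ± 32.2 CPM (SD, n = 3), and it fell by 0.70 on the log2 scale (SE 0.094), that is 1.63-fold, with an edgeR adjusted p of 0.000283. It passed in all 14 other fits. miR-3152-3p stood at 87.0, 120 and 141 CPM in cells Con and at 48.9, 58.0 and 68.2 in cells Ang, again without overlap. Its change was −0.98 (SE 0.202), 1.98-fold lower, with an edgeR adjusted p of 0.00638, and the call was lost without replicate 2 of cells Con (adjusted p 0.0514) and without replicate 3 (0.0579).

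miR-12135 stood at 1012, 1023 and 936 CPM in cells Con and at 1421, 1195 and 1515 in cells Ang, the lowest Ang value being that of replicate 2. Its mean went from 990 ± 47.2 to 1377 ± 165 CPM (SD, n = 3), a log2 change of 0.46 (SE 0.088), 1.38-fold higher, with an edgeR adjusted p of 0.00421. The call was lost without replicate 3 of cells Con (0.41, adjusted p 0.0642) and with all 12 libraries in 1 fit (0.41, adjusted p 0.119). miR-759 stood at 478, 539 and 575 CPM in cells Con and 724, 622 and 686 in cells Ang, 1.27-fold higher (log2 0.34, SE 0.097, edgeR adjusted p 0.0443). It lies at the threshold and failed it in 10 of 14 other fits, among them those without any 1 library of cells Con or without replicate 1 or 3 of cells Ang. Without replicate 2 of cells Ang, the library with the high endothelial and blood markers, all 4 calls held, at log2 0.54 for miR-12135, 0.39 for miR-759, −0.74 for miR-5582-3p and −0.98 for miR-3152-3p.

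The other 6 names did not pass. miR-3684 was at 656 ± 69.4 CPM in Con and 782 ± 34.4 in Ang (log2 0.24, adjusted p 0.146), and miR-651-5p at 418 ± 32.6 and 344 ± 18.2 (−0.29, adjusted p 0.129). In both the groups did not overlap. miR-26a-2-3p was at 581 ± 45.2 and 643 ± 48.4 CPM (0.14, adjusted p 0.486), with overlap. Fewer counts lie behind miR-8076, at 41.5 ± 10.01 and 57.0 ± 4.0 CPM (0.46, adjusted p 0.292), miR-33a-5p, at 32.6 ± 2.14 and 25.5 ± 3.67 (−0.37, adjusted p 0.561), and miR-8084, at 32.4 ± 5.56 and 29.4 ± 6.73 (−0.15, adjusted p 0.853). Their standard errors were 0.232 to 0.287 on the log2 scale, and at this depth miR-8076 did not pass with the same estimate as miR-12135. In all, 8 of 10 names had groups that did not overlap, against 22.4% of the names tested. That share covers names of every cell level that passed the count filter. Names of like cell level were not counted apart, so nothing is read from 8 of 10.

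**Figure D5:**
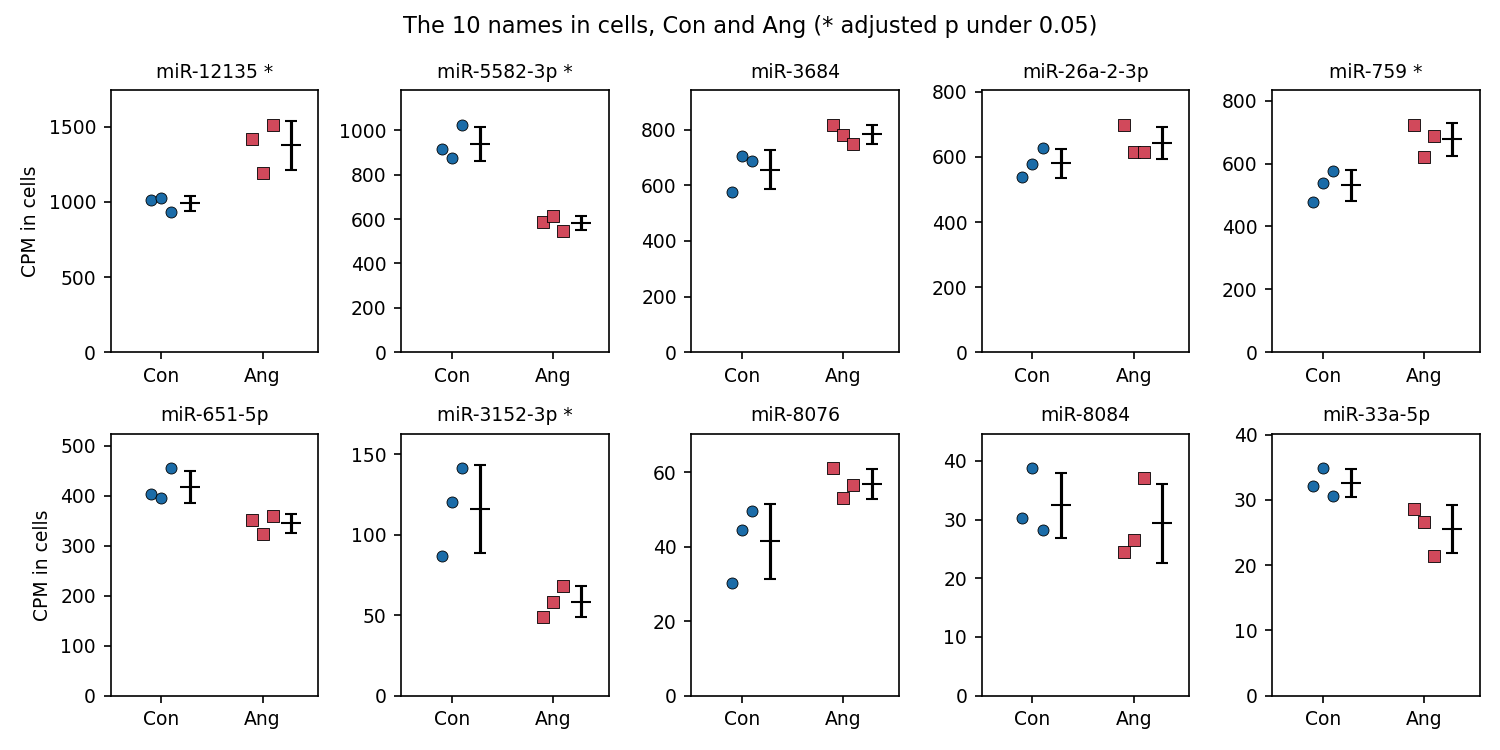
Level of the 10 names in CPM in the 3 Con and 3 Ang cell libraries, with 1 point per library and the mean ± SD beside each group, each panel on its own linear axis from 0. Stars mark miR-12135, miR-5582-3p, miR-759 and miR-3152-3p, whose adjusted p was under 0.05, and only miR-26a-2-3p and miR-8084 have overlapping groups.

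Of the partner arms of the 4 changed names, only miR-5582-5p entered the fit, and it did not pass. It had a log2 change of −0.22 (edgeR adjusted p 0.809), on 36 and 30 UMIs per group. miR-3152-5p was removed by the count filter. It stood at 15.1, 15.5 and 16.5 CPM in cells Con and 26.5, 24.2 and 19.5 in cells Ang, higher in Ang without overlap, whereas miR-3152-3p was lower. The share of miR-3152-3p among the UMIs of its hairpin was 85.2%, 88.6% and 89.6% in cells Con and 64.9%, 70.6% and 77.8% in cells Ang. For miR-5582-3p the mean share was 97.4% ± 0.134 and 96.5% ± 0.373 (SD, n = 3). Both shares differed without overlap, at an exact two-sided permutation p of 0.1, the smallest that 3 against 3 allows (0.2 adjusted over the 4 hairpins tested). The shares of miR-651-5p (exact permutation p = 0.4) and miR-33a-5p (exact permutation p = 1) overlapped. miR-26a-5p and miR-33a-3p had log2 changes of 0.10 (adjusted p 0.478) and −0.17 (adjusted p 0.853).

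In exosomes the counts left almost nothing to test between Ang and Con. None of the 10 names passed the count filter, while 34.0% of the 1199 names that did were called. All 10 names together had 33 UMIs in Con and 38 in Ang. In number of UMIs, though not in log2 change, the 2 groups differed most in miR-651-5p. It had 4 UMIs in Con and 13 in Ang, 8 of which lie in replicate 2. Without the count filter the exosome fit gave it a log2 change of 1.81 (SE 0.826, edgeR adjusted p 0.180). miR-3152-3p had 5 and 0 UMIs and miR-26a-2-3p 6 and 1, and neither passed without the filter (adjusted p 0.243 and 0.379).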

How the data were processed

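The 12 deposited tables hold raw counts of UMIs per mature miRNA name, whole numbers with no normalization by the authors, per the file headers. Libraries were made with a QIAseq miRNA kit, per the labels' protocols. Per the submitters' processing notes, cutadapt and the GRCh38 build were used; neither the aligner nor the counter is given in the sources used here, so near-identical strands may share counts. A name without a row in the exosome tables was taken as 0.

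The 10 names, the partner arms and families, and the marker lists were chosen with earlier results of these data known. Named beyond the 10 were their partner arms, the miR-33 and miR-26 families, names sharing a seed, and the 10 names outside the list with the lowest exosome to cell ratio among those of at least 20 CPM in cells. The 3 with the highest ratio were added after their values were seen.

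Exosome to cell ratios used counts summed over a group and library totals, with exact 95% intervals and a floor of 3 counts per group. In the both-treatment ranking every exosome sum under 3 was set to 3. Ang and Con were compared per compartment with edgeR 4.0.16 in R 4.3.3 (filterByExpr, TMM, two-sided quasi-likelihood test), with Benjamini-Hochberg adjustment over all names tested and a threshold of 0.05. An adjusted p given without a tool's name comes from this fit. The difference of the changes was fitted to all 12 libraries, an alternative added after seeing the data. Only the main edgeR fit of each compartment was run on simulated counts, with no outcome given here. The difference of the changes and the alternatives were not.

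Alternatives were RLE factors, library totals, DESeq2 1.42.0, limma-voom 3.58.1, no filter, a minimum of 10 CPM on average, a block for the replicate number, all 12 libraries, and each library left out. The sequence set used here, taken from RefSeq (GRCh38.p14), matched 2367 of 2656 names (89.1%). Host genes came from GENCODE release 29. A floor of 3 counts in a single library is 2.91 to 7.25 CPM.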

Additional observations from a re-analysis of the deposited data

Results flagged for a closer look

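The Ang change of miR-651-5p in exosomes, minus that in cells, was 2.32 on the log2 scale in a fit to all 12 libraries (SE 0.686, edgeR adjusted p 0.0298, where 15.1% of the 1835 names tested were called). It is listed for that value alone and is not read as a difference. The name was chosen for its near-absence from exosomes and entered the fit only through its cell counts, its exosome counts being 0, 3 and 1 in Con and 2, 8 and 3 in Ang. It was not called without replicate 2 of exosomes Ang (1.58, adjusted p 0.325), without replicate 1 or 3 of exosomes Con (1.69 and 2.14, adjusted p 0.114 and 0.0696) or without replicate 2 of cells Ang (2.28, adjusted p 0.0528). The same fit gave its exosome change alone as 1.97 (adjusted p 0.0428), against 1.81 (adjusted p 0.180) in the exosome libraries without a count filter.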

How the results depend on the processing

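For Ang against Con in cells, 107 names were called (45 higher and 62 lower), 91 to 132 in the other fits to all libraries and 38 to 97 with a library left out: 38 without replicate 2 of cells Con, 38 without replicate 3 and 70 without replicate 1 of cells Ang. With all 12 libraries the split was 29 higher and 65 lower. In exosomes, 408 names were called (204 and 204), and 312 to 422 with a library left out, the split being 151 and 319 by library totals, 177 and 116 by DESeq2 and 248 and 161 with all 12 libraries. Of the alternative values of the 10 names in cells, all kept their direction and 14 lost the call, for miR-759 (10), miR-12135 (2) and miR-3152-3p (2). Fits that leave out a library test a different number of names with fewer samples, and the cause of the lost calls was not tested.

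Con and Ang libraries of the same replicate number had correlations of deviations of −0.019 to 0.054 in cells and −0.165 to 0.236 in exosomes. Those of different numbers had −0.040 to 0.047 in cells and −0.424 to 0.312 in exosomes. With so few libraries these values do not settle whether the replicate numbers pair the libraries. With a replicate block the calls numbered 132 in cells and 398 in exosomes, and all 4 calls among the 10 names held.

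On the TMM scale the names at least 20-fold lower in exosomes numbered 7 in Con and 6 in Ang, and the median log2 ratio of the 10 was −6.66 and −5.38. With a library left out the numbers were 10 in Con and 8 to 10 in Ang, and the medians −8.38 to −7.67 and −7.30 to −6.47. The floor rises when an exosome library is left out, which lowers the bounds of names at 0. The GC difference (median log2 ratio of names at 30% GC or less minus that above 60%) was −4.80, −4.45 with a minimum of 10 CPM and −4.88 to −4.64 with a library left out. At a minimum of 50 CPM the low class held only 18 names. Above 60% GC the median turned to 1.22 on the TMM scale. miR-33a-3p, never called, turned to 0.028 in cells without replicate 1 of cells Ang, in a range of −0.59 to 0.028 with a library left out.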
